A study of Mus musculus with 149 samples.

Results

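The 9 genes described here encode enzymes that turn glucose into fatty acids, or regulators of those enzymes, in hepatocytes, the parenchymal cells of the liver: Pklr, Mlxipl, Srebf1, Fasn, Acaca, Acly, Scd1, Elovl6 and Thrsp. They were chosen by name as the glycolysis and lipogenesis genes of the series, and all 9 were found among its 20308 mouse genes. RNA was measured in 149 single liver cells of 1 C57BL/6 mouse, a male aged 8 weeks. Cells were isolated and captured on Fluidigm C1 chips with traps of 17 to 25 µm (large chip, 80 cells), 10 to 17 µm (medium chip, 30 cells) or 5 to 10 µm (small chip, 39 cells). All cells share 1 animal, and the labels name no treatment, so cells are not replicates of a condition, each chip is 1 sample, and no p-value is given. Every difference below describes these cells only.

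In the fed liver, glucose is broken down to pyruvate by glycolysis and enters mitochondria, which export its carbon as citrate. Pklr encodes the liver pyruvate kinase, the last step of glycolysis. Acly encodes ATP citrate lyase, which splits cytosolic citrate into acetyl-CoA. Acaca encodes acetyl-CoA carboxylase, which makes malonyl-CoA, and Fasn encodes fatty acid synthase, which builds palmitate from it. Elovl6 lengthens palmitate to stearate, and Scd1 puts the first double bond into these chains. Thrsp encodes Spot 14, a protein that promotes lipogenesis. The pathway is switched on by the transcription factors SREBP1c, made from Srebf1 and activated through insulin, and ChREBP, made from Mlxipl and activated by glucose metabolites. Hepatocytes divide these tasks along the lobule, with periportal cells near the blood's entry and pericentral cells near its exit.

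The bases before the start of 4 members are printed first, because these genes form the 2 pairs that varied together most between cells at the same position (Fasn with Acly, and Pklr with Thrsp). RefSeq (GRCm38.p6) listed 12 starts for 8 of the 9 members, and the 250 bases before each were read. For Pklr the downstream of its listed starts is shown. Sequences run 5′ to 3′ on the gene's strand, and capitals mark matches to the motifs named below on either strand.
Pklr (chr3:89136373-89136622, plus strand): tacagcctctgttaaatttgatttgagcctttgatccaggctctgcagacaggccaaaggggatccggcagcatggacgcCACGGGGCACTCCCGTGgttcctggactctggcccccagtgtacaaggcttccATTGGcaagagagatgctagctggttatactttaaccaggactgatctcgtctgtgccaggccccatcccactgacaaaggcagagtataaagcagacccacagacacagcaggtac
Thrsp (chr7:97417551-97417800, minus strand): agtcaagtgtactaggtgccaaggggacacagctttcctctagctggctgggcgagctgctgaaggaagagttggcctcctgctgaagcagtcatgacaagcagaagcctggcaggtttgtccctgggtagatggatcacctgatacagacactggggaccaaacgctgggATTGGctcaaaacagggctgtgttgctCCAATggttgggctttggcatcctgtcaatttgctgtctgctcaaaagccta
Fasn (chr11:120824548-120824797, minus strand): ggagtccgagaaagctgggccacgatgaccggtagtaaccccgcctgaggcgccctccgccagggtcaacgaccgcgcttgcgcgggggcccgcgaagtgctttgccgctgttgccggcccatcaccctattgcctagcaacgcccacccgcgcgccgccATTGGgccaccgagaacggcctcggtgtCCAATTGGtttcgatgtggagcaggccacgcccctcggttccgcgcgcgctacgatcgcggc
Acly (chr11:100528001-100528250, minus strand): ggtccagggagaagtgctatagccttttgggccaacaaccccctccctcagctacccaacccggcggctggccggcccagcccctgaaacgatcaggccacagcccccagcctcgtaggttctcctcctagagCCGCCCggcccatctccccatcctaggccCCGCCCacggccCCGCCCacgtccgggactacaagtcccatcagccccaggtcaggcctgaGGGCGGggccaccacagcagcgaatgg
The longer run of capitals in Pklr matches CACGNG followed, after 5 bases, by CNCGTG, the pattern of the carbohydrate response element that ChREBP binds, beginning 170 bases before the start. This pattern was added after the sequences had been seen, and 13 of 32851 promoter windows in the table held it (0.0396%). CCAAT, the box bound by NF-Y, was found once in the window shown for Pklr, 2 times in Thrsp and 3 times in Fasn, where 2 matches overlap; windows of Mlxipl and Srebf1 held it too, as did 33.8% of all windows. GGGCGG, the GC box bound by Sp1, was found 4 times in Acly, also in windows of Mlxipl and Srebf1, and in 32.7% of all windows. CACGTG, the E-box, was in the window of Mlxipl that lies farther upstream and in 6.02% of all windows. TCACNCCAC, the core of the sterol regulatory element that SREBP binds, was in the other Mlxipl window and in 1.05% of all windows. The direct repeat of AGGTCA with 4 bases between, bound by LXR, was in 0 of the 12 windows and in 0.0152% of all windows. A match describes these letters only, and no match says nothing of the factor.

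The cells differ widely in how much of their signal is liver RNA, which bears on every value below. ERCC spike-ins, synthetic RNAs added to the lysis mix, took a median of 3.66% of a cell's summed values on the large chip, 82.7% on the medium and 82.8% on the small. They took under 50% in 64 large-chip, 7 medium-chip and 12 small-chip cells. The main results rest on those 64 large-chip cells. Hepatocyte markers (Alb and 4 others found in the table) summed to between 22259 and 202394 in each of them. By a rule of 3 markers of another cell type at 10 or more, 6 of the 64 also held endothelial and 3 bile duct markers, with summed levels of up to 41884 and 41184. Macrophage markers summed to at most 494, and Clec4f, Cd5l, Vsig4, Marco and Emr1 were at 0 in all 64.

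Values are expected counts normalised by the authors, so a longer transcript collects more of them. Divided by the longest coding transcript, the median level over the 64 cells was 1097 per kilobase for Scd1, 112 for Thrsp, 15.5 for Acly and 10.3 for Mlxipl. It was 5.16 for Elovl6, 4.77 for Fasn, 4.15 for Pklr, 3.93 for Srebf1 and 1.57 for Acaca. The interquartile ranges of Scd1, at 599 to 1651, and Thrsp, at 72.2 to 181, overlapped with no other member. Those of Acly and Mlxipl overlapped, as did those of each later pair of neighbours in this order. On GRCm38, in GENCODE M21, Acly lies at chr11:100476353-100528000, Fasn at chr11:120805846-120824547, Acaca at chr11:84129672-84401651 and Srebf1 at chr11:60199089-60222581. Scd1 lies at chr19:44394455-44407879, Thrsp at chr7:97412938-97417730, Mlxipl at chr5:135089890-135138382, Elovl6 at chr3:129532355-129638495 and Pklr at chr3:89136142-89146784, all protein-coding. Reads of the Srebf1 isoforms were not separated. Scd1 was thus the most abundant of the 9 per length, and Acaca, an enzyme upstream of it, the least.

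All 9 members were above 0 in 45 of the 64 cells. Scd1, Fasn and Mlxipl were above 0 in all 64, Acly in 63, Srebf1 in 62, Thrsp in 61, Acaca in 59, Elovl6 in 58 and Pklr in 57 (89.1%, exact Clopper-Pearson 95% interval 78.8% to 95.5%, counting error only). Spread between cells was wide. Fasn ran from 6.06 to 175 with a median of 47.9, while Acly ran from 0 to 1233 with a median of 68.7. The single highest cell stood 3.65 times above the median for Fasn, 3.32 times for Scd1 and 3.79 times for Thrsp, but 44.3 times for Srebf1 and 37.1 times for Pklr. For Srebf1 (750) this was cell 64, which held all 8 endothelial markers, and the next cell had 188. For Pklr (447) it was cell 53, with a spike-in share of 40.99%, and the next cell had 302.

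The columns of the deposited table are not in the order of the cells' numbers, and its name mentions WaveCrest, a method that orders cells by expression. Which genes set that order is not given in the sources used here. Landmarks of the lobule were read along it, with no test, to find its direction. Cyp2f2, a periportal cytochrome P450, had a median of 4801 in the first 22 of the 64 cells and 5.09 in the last 21. Cyp2e1, its pericentral counterpart, had 15.01 and 14984. All 6 periportal landmarks had a Spearman rho of -0.3 or below with the column order and all 6 pericentral landmarks 0.3 or above. The first columns are therefore called the periportal end and the last the pericentral end. Technical measures also moved along the order: rho was -0.55 for the spike-in share, 0.44 for the summed mouse values and 0.34 for the number of genes above 0. The median spike-in share was 3.73% in the first 22 cells, 3.77% in the middle 21 and 2.39% in the last 21. Cells with a share of 50% or more sat inside the order, at columns 15 to 115 for the large chip, 34 to 100 for the medium and 70 to 126 for the small. The part of these measures in the gradients below was not tested beyond the values given.

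Acly was the member most strongly graded along the order, and it was higher at the periportal end. Its values in the first 22 cells ran from 31.6 to 1209 with a median of 111, in the middle 21 cells from 0 to 1233 with a median of 73.1, and in the last 21 from 1.45 to 122 with a median of 22.8. Of the last 21 cells, 20 lay below the median of the first 22, and 13 lay below the lowest of them. The ratio of the medians of the end groups was 2.24 on the log2(value + 1) scale, and rho with the order was -0.63 over the 64 cells. It was -0.53 with the spike-in share held constant, -0.61 with the number of genes held constant, and between -0.52 and -0.68 under every alternative tried. Cells 53 and 75, at 1233 and 1209, had spike-in shares of 40.99% and 40.8% and larger summed values; without the 7 cells of that kind rho was -0.67. In the other chips rho was 0.21 over 7 medium-chip and -0.27 over 12 small-chip cells.

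The other enzymes of fatty acid synthesis leaned the same way, more weakly. Acaca had a median of 25.7 in the first 22 cells (0 to 335), 12.2 in the middle (0 to 115) and 5.15 in the last 21 (0 to 56.5), with a rho of -0.37. Its groups overlapped widely, since 4 of the first 22 cells lay below the median of the last 21. Fasn had medians of 66.3 (7.45 to 175), 55.3 (6.06 to 114) and 40.9 (11.07 to 119) and a rho of -0.33. In 20 of the last 21 cells Fasn was below the median of the first 22, yet its end medians differed by only 0.69 on the log2 scale. Scd1, the desaturase, was highest in the middle: its medians were 5771 (2383 to 9946), 7195 (378 to 15579) and 3148 (641 to 17601), with a rho of -0.31. The drop of Scd1 thus lay between the middle and the last cells. With the spike-in share held constant these rhos were -0.22 for Acaca, -0.25 for Fasn and -0.25 for Scd1, all under 0.3 in size. With position taken from a landmark score in place of the column order, Acaca had -0.27. Over the 7 medium-chip cells Scd1 went the other way, at a rho of 0.79, while Acaca had -0.64 and Fasn -0.31. Over the 12 small-chip cells the rhos were -0.21 for Scd1, -0.11 for Acaca and -0.32 for Fasn.

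The remaining members had rhos under 0.3 in size. Elovl6, the elongase, had medians of 28.9 (0 to 199), 41.6 (0 to 122) and 15.5 (0 to 232) and a rho of -0.046. Thrsp had medians of 184 (0 to 543), 110 (0 to 330) and 154 (19.6 to 463) and a rho of -0.027, so both ends were above the middle. Pklr, the glycolytic enzyme, had medians of 14.1 (0 to 106), 12.4 (0 to 447) and 7.85 (0 to 302) and a rho of -0.16. Of the transcription factors, Srebf1 leaned periportal without reaching 0.3. It had medians of 19.8 (0 to 141), 18.1 (0 to 750) and 11.3 (2.54 to 65.5), with a rho of -0.20, and its end medians differed by 0.75 on the log2 scale. Mlxipl had 35.7 (2.10 to 695), 37.4 (1.24 to 270) and 43.6 (2.50 to 150), with a rho of 0.077, the only positive value among the 9.

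**Figure D1:**
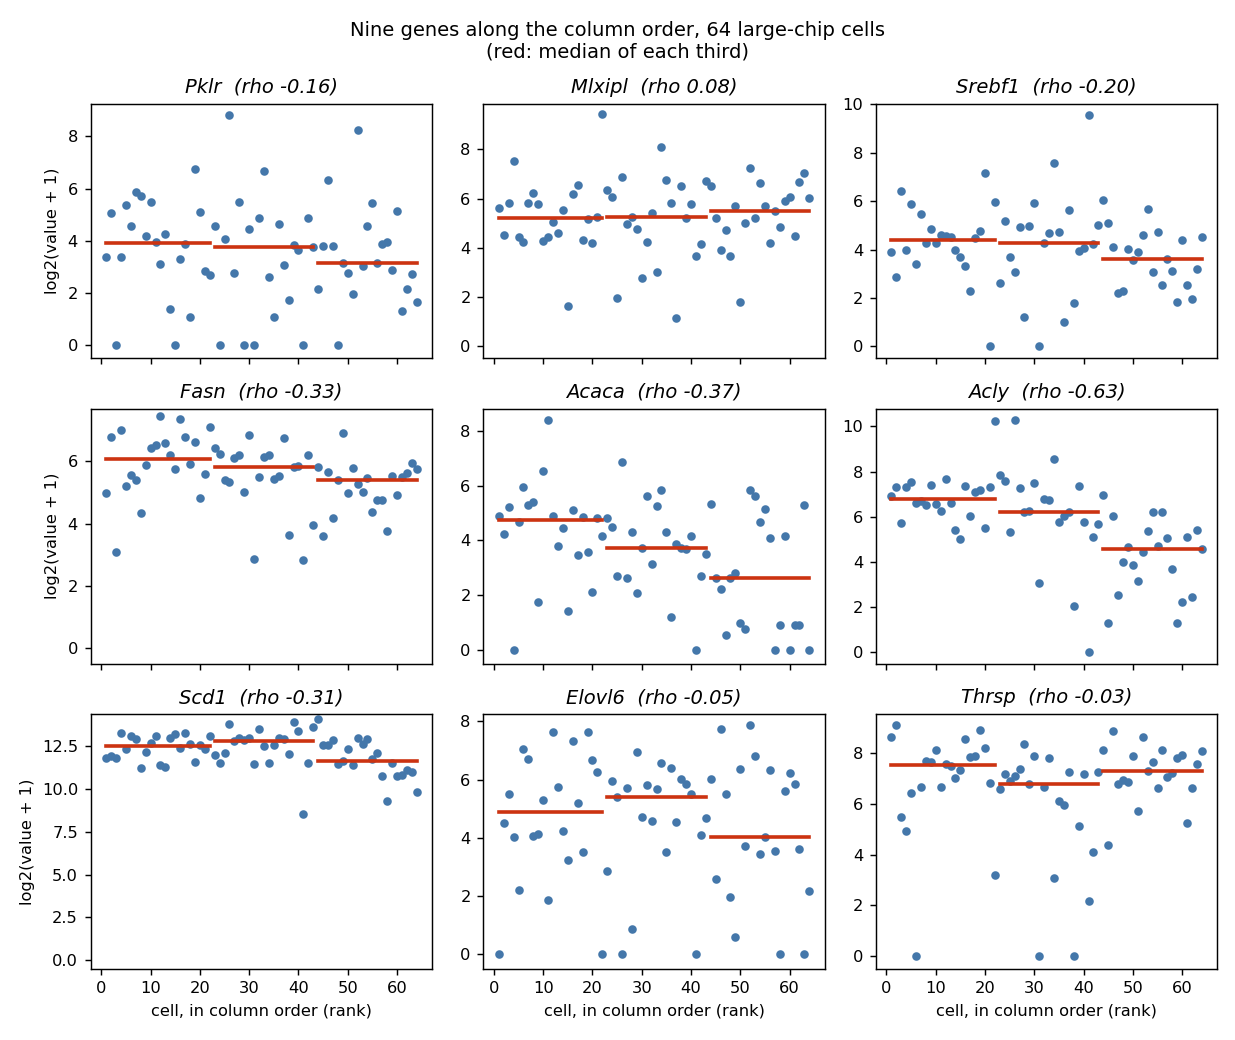
Each panel plots 1 gene as log2(value + 1) in the 64 large-chip cells with a spike-in share under 50%, with cells ranked by column order from the periportal (left) to the pericentral end (right) and red lines at the median of each group of 21 or 22 cells. Acly (rho -0.63) steps down toward the right, and Acaca and Fasn do so less. Scd1 is highest in the middle group and falls in the last, and Mlxipl (0.08) stays level.

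Counted by a rule of size, a rho of at least 0.3, 4 of the 9 members (Acly, Acaca, Fasn and Scd1) were graded toward the periportal end and 0 toward the pericentral end. Of all 8813 genes above 0 in at least 20% of cells, 7.01% were graded periportal and 3.72% pericentral, and the median rho was -0.018 against -0.20 for the 9. Fasn and Scd1 lay just inside the threshold, and Srebf1, at -0.20, was the nearest outside it. With the spike-in share held constant, a setting chosen after the data were seen, 1 member met the rule toward the periportal end, Acly, against 5.74% of all genes, and 0 toward the pericentral end, against 2.38%. With the number of genes held constant the counts were 4 and 0, against 7.73% and 2.3% of all genes. Over all 80 large-chip cells they were 3 and 0, against 4.82% and 2%. Without the 9 cells holding markers of other cell types 2 members met it, Acly at -0.65 and Acaca at -0.46. No share of all genes is given for that setting.

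Other genes of the pathway, taken from lists, were graded periportal more often than pericentral, as were all genes tested (7.01% and 3.72%), so the direction alone is not particular to them. Each count below is to be read against those shares, and in the lists with 1 or 2 genes graded toward an end it differs from them by few genes. Of 13 genes of glucose uptake and glycolysis 5 were graded periportal and 1 pericentral, with a median rho of -0.19. Gapdh, of the middle of glycolysis, had medians of 1903 in the first 22 cells and 917 in the last 21, with a rho of -0.63, and Tpi1, triosephosphate isomerase, 333 and 179 with a rho of -0.53. Pfkfb1, the enzyme that sets fructose 2,6-bisphosphate in liver, went the other way, with 0 and 9.07 and a rho of 0.51. Gapdh and Tpi1 also serve gluconeogenesis, so they do not mark glucose use alone.

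Among genes that supply carbon and NADPH, 1 of 12 was graded periportal and 1 pericentral. Slc25a1, the mitochondrial carrier that exports the citrate Acly uses, had medians of 88.8 (4.26 to 480) and 32.5 (4.78 to 107) and a rho of -0.40. Cs, citrate synthase, had 15.8 and 49.02 and a rho of 0.40, which was 0.27 with the spike-in share held constant.

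Elongases other than Elovl6 differed from each other. Of 13 other genes of synthesis, elongation and desaturation 2 were graded periportal and 1 pericentral. Elovl2 and Elovl5, which lengthen polyunsaturated chains, had rhos of -0.57 each, with Elovl2 at a median of 744 in the first 22 cells (170 to 4004) and 276 in the last 21 (143 to 707). Elovl5 had 540 (188 to 1566) and 185 (81.0 to 801). Elovl3, an elongase of saturated and monounsaturated chains, was opposite, with 416 (0 to 1814) and 1077 (473 to 2106) and a rho of 0.55. Elovl1 was graded toward neither end, with 29.1 and 36.05 and a rho of 0.00057. Elovl2, Elovl5 and Elovl3 stayed past 0.3 in size with the spike-in share held constant.

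In triglyceride assembly 1 of 7 genes was graded periportal, Lpin1, a phosphatidate phosphatase, with medians of 181 and 70.3 and a rho of -0.58. Of 16 regulators and insulin signalling genes 2 were graded periportal and 1 pericentral. Insig1 and Insig2, which hold SREBP precursors in the endoplasmic reticulum, had rhos of -0.51 each, and Insig2 had medians of 530 and 296. Irs1, an adaptor of the insulin receptor, had medians of 1.595 and 20.95 and a rho of 0.37, or 0.21 with the spike-in share held constant. Of 6 other known targets of SREBP1c or ChREBP 3 were graded periportal and 0 pericentral. Mid1ip1, a relative of Thrsp, had medians of 29.8 (0 to 227) and 4.80 (0 to 22.8) and a rho of -0.48. Txnip, a ChREBP target, had 248 and 158 and a rho of -0.31, or -0.16 with the spike-in share held constant, and Fgf21, a hormone, had 4.91 and 0 and a rho of -0.30.

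**Figure D2:**
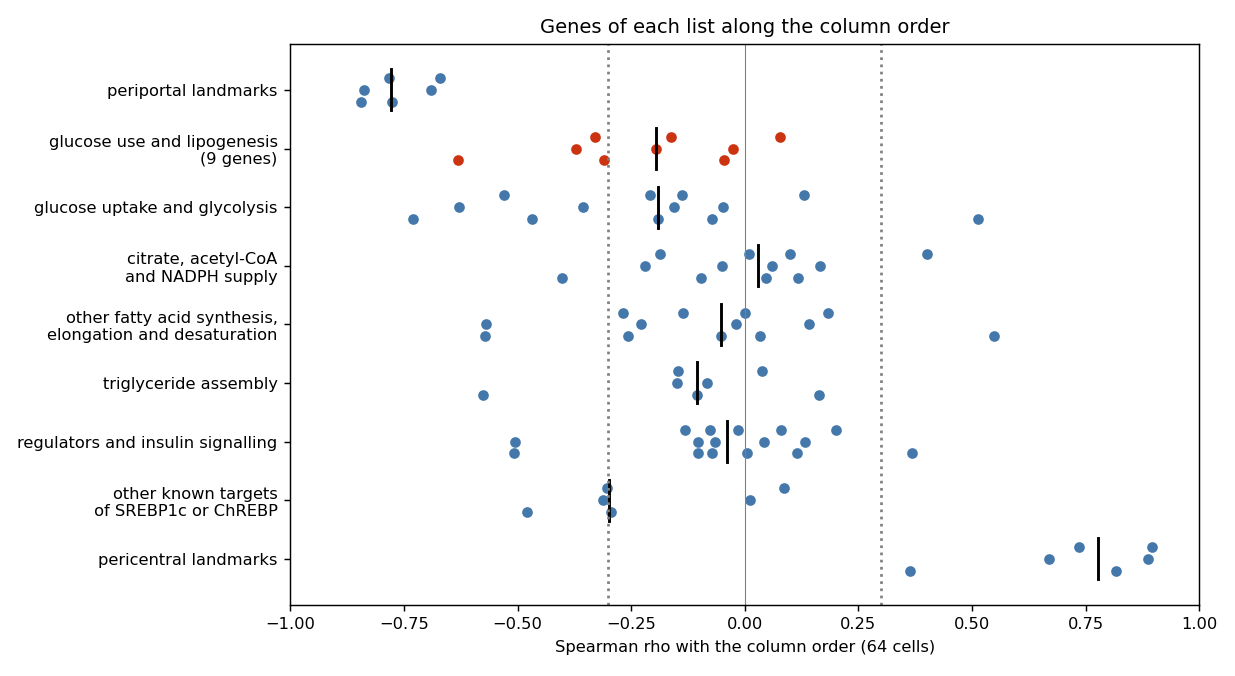
Each point is a gene, placed by its Spearman rho with the column order over the 64 cells; rows are gene lists, black bars their medians and dotted lines the threshold of 0.3 in size. The 9 genes (red) have a median of -0.20, between the periportal landmarks on the left and the pericentral ones on the right.

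Cells at the same position were then compared, to ask which members were high together. A cubic curve along the order was taken out of each gene's log2(value + 1), and the remainders were correlated over the 64 cells, which share an animal, a chip and a normalisation. Among the 36 pairs of members the median rho was 0.11, with 29 pairs above 0 and a range from -0.13 to 0.41. At a rho of 0.3 or more stood 2 of 36 pairs, 5.56%. Of all pairs of genes tested 3.04% reached it (median 0.039), and 5% of pairs of genes with a mean above the median gene (median 0.057). The share among members was thus near that of genes of higher level.

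Fasn and Acly formed the highest pair, with a rho of 0.41. Acly had a median of 101 (4.50 to 1209) in the 32 cells with Fasn above its own median and 42.6 (0 to 1233) in the other 32, so the groups overlapped over most of their range. These are deposited values, not adjusted for position. Before the curve was taken out the rho was 0.56, it was 0.33 with cells rescaled to their mouse sum, and it was 0.27 without the 7 cells of large sums. Pklr and Thrsp followed with 0.34 (0.26 without those 7 cells). Split the same way, Thrsp had a median of 151 in the 32 cells with Pklr above its median and 134.9 in the other 32, so deposited values hardly differed; both genes were above their medians in 17 cells and neither in 17. The remainders of Thrsp also ran with the summed mouse values of a cell, at a rho of -0.46, and those of Pklr at -0.24. With cells rescaled to their mouse sum the rho of Pklr and Thrsp was 0.34. The part of the summed values in this pair was not tested. Acaca and Acly, enzymes of successive steps, were just outside the threshold at 0.297. Without the 7 cells of large sums the pairs at 0.3 or more were others, Acaca with Scd1 (0.33) and Acaca with Acly (0.32). In the 19 medium-chip and small-chip cells under 50% spike-in, Fasn and Acly had 0.081 and Pklr and Thrsp -0.21, so neither pair reached 0.3 there. Fasn and Thrsp, named after the values were seen, had 0.53 there, the highest of the member pairs. That pair had 0.28 in the main results, 0.55 over all large-chip cells and 0.42 with cells rescaled. It had 0.275 without the 7 cells of large sums and 0.21 before the curve was taken out. The cause of these differences was not tested.

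The transcription factor genes differed in how far they varied with the enzymes. In the large-chip cells of the main results Srebf1 varied little with them. There it had a median rho of 0.0035 with the other 8 members, the lowest of the 9. Its highest was 0.17 for Acly, and Fasn had -0.019. In the 19 medium-chip and small-chip cells its rhos were 0.45 for Elovl6, 0.40 for Thrsp, 0.40 for Acaca and 0.35 for Fasn. There Pklr had 0.27, Acly 0.095, Mlxipl 0.081 and Scd1 -0.088. Over all large-chip cells Srebf1 had 0.34 for Thrsp, 0.33 for Pklr and 0.30 for Acaca, and under 0.3 for the other members. The cause was not tested. In the cells of the main results Mlxipl had a median of 0.047. Its rhos there were 0.27 for Acaca, 0.25 for Acly, 0.22 for Scd1, 0.024 for Pklr and -0.13 for Thrsp. Acly had the highest median, 0.23, followed by Thrsp with 0.20 and Scd1 with 0.18. Elovl6 had 0.046, and its highest partner was Thrsp, at 0.20. Transcript levels do not show how much of these factors was processed or active.

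**Figure D3:**
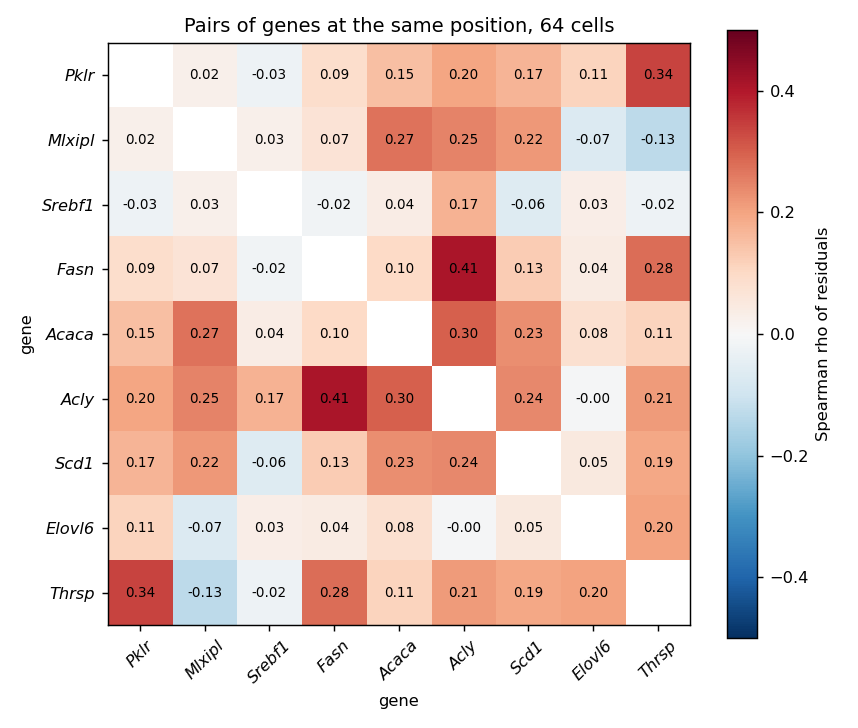
The grid gives the Spearman rho between each pair of genes after a cubic curve along the column order was taken out of log2(value + 1), over the 64 cells; the diagonal is blank. Fasn with Acly (0.41) and Pklr with Thrsp (0.34) are darkest, and the row of Srebf1 is nearly white.

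**Figure D4:**
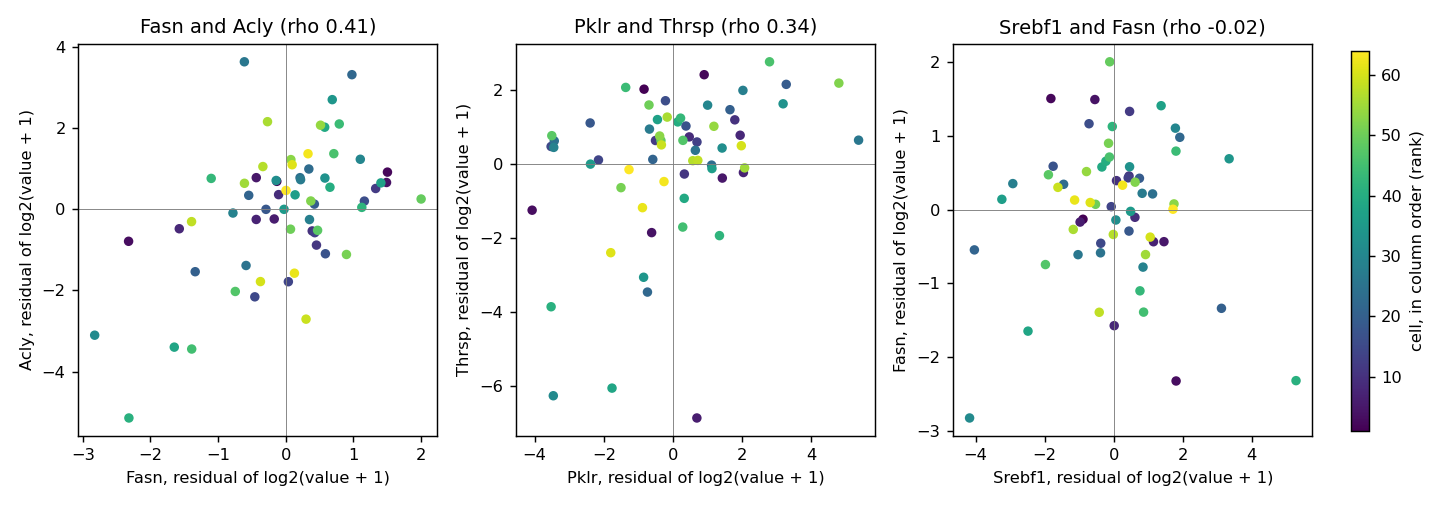
Each point is 1 of the 64 cells, with the remainders of log2(value + 1) after the cubic curve for a gene on each axis, coloured by rank in the column order. Fasn and Acly rise together with a wide scatter and a few cells low in both, Pklr and Thrsp do so less, and Srebf1 and Fasn (rho -0.02) do not.

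The members were also set against the other pathway genes at the same position. Of 117 pairs between the 9 members and the 13 genes of glucose uptake and glycolysis, 20 (17.1%) had a rho of 0.3 or more, with a median of 0.16. For carbon and NADPH supply it was 15 of 108 (13.9%), for triglyceride assembly 6 of 63 (9.52%), for regulators 9 of 144 (6.25%), for other fatty acid genes 6 of 117 (5.13%) and for other known targets 2 of 54 (3.70%). Against 3.04% of all pairs and 5% of pairs of genes of higher level, the first 2 shares were the highest. Among the genes of higher level with the greatest mean rho over the 9 members were some from these lists. Me1, malic enzyme, a source of NADPH for Fasn, had a mean of 0.28, with 0.47 for Scd1 and 0.40 for Mlxipl. Eno1, enolase, had 0.27, with 0.50 for Acly and 0.46 for Fasn. Outside the lists they included Sdha (0.29), Atp5a1 (0.29), Tubb2a (0.27), Pygl (0.27), Use1 (0.27), F2 (0.26) and C2 (0.26). The median over all genes of any level was 0.049. No median is given for the genes of higher level alone, from which these highest values were picked. Nr1h3, the LXR that induces Srebf1, had a rho of 0.40 with Scd1, 0.37 with Acly and -0.0049 with Srebf1.

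Over all cells Pklr was above 0 in 60 of 80 large-chip, 11 of 30 medium-chip and 15 of 39 small-chip cells. The chips also differed in their mix of cells by spike-in share, and its part in these counts was not tested. In cells with a spike-in share of 50% or more, Pklr was above 0 in 3 of 16 large-chip, 6 of 23 medium-chip and 9 of 27 small-chip cells, and Fasn in 11, 5 and 11. Scd1 was above 0 in every cell of every chip, with medians of 3210, 3848 and 3701 in those cells. Acly held a median of 71.2 in the 16 large-chip cells, beside 68.7 in the 64 others, and 1.49 and 5.80 on the medium and small chips.

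Among cells under 50% spike-in, Scd1 had a median of 13076 (4285 to 18940) in the 7 medium-chip cells, 5984 (2140 to 15126) in the 12 small-chip cells and 5302 (378 to 17601) in the 64 large-chip cells. Its log2 ratio of means was 1.05 for medium over large and 0.49 for small over large. Thrsp had medians of 282 (144 to 438), 47.8 (0 to 723) and 143 (0 to 543). Pklr had 54.2 (0 to 313), 1.37 (0 to 2462) and 12.04 (0 to 447), and its log2 ratios of means were 1.48 and 2.94, the second carried by a cell at 2462 and the first under 1 (0.62) without the highest medium-chip cell. Over all cells, medium over large, the means of 2 members were at least 2-fold higher, Mlxipl and Acaca, and 0 lower, against 12.7% and 37.5% of all genes. Both rested on single cells: without the highest medium-chip cell Mlxipl had a mean of 63.4 against 52.1 on the large chip, and Acaca 11.3 against 20.98. Their medians ran the other way, at 0 on the medium chip against 32.3 for Mlxipl and 10.6 for Acaca. Small over large, the mean of 1 was higher, Pklr, and of 1 lower, Thrsp, against 12.8% and 41.9%, and without its highest small-chip cell Pklr had 19.5 against 23.8. By medians over all cells 8 members, all but Scd1, were at least 2-fold lower on each of the smaller chips. No share of all genes by medians is given, so this count is no result about the members. Shares of 50% or more spike-in were held by 23 of 30 medium-chip, 27 of 39 small-chip and 16 of 80 large-chip cells. The median number of genes above 0 was 2306.5, 3087 and 7389.5 in that order. Within the cells under 50% spike-in, in medium over large 2 members were at least 2-fold higher, Pklr and Scd1, and 0 lower, against 17.3% and 24.8% of all genes; without the highest medium-chip cell Scd1 had a log2 ratio of 0.91. In small over large the means of 5 were higher, Pklr, Fasn, Acly, Srebf1 and Elovl6, and 0 lower, against 25% and 26.7%. For 4 of them this rested on 1 of the 12 cells. Without the highest small-chip cell the means were 29.6 against 29.3 for Pklr, 155 against 117 for Acly, 13.2 against 36.3 for Srebf1 and 65.9 against 49.7 for Elovl6. Fasn stayed past 2-fold, with 177 against 57.5, and its median was 121 against 47.9. The medians of Pklr and Srebf1 were lower on the small chip, at 1.37 against 12.04 and 2.45 against 16.9. These values without the highest cell were added after seeing the data. The 7 medium-chip cells lay at a median column of 43 and the 12 small-chip cells at 61, against 45.5 for the large chip, so chip and position are partly mixed and their parts were not tested.

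**Figure D5:**
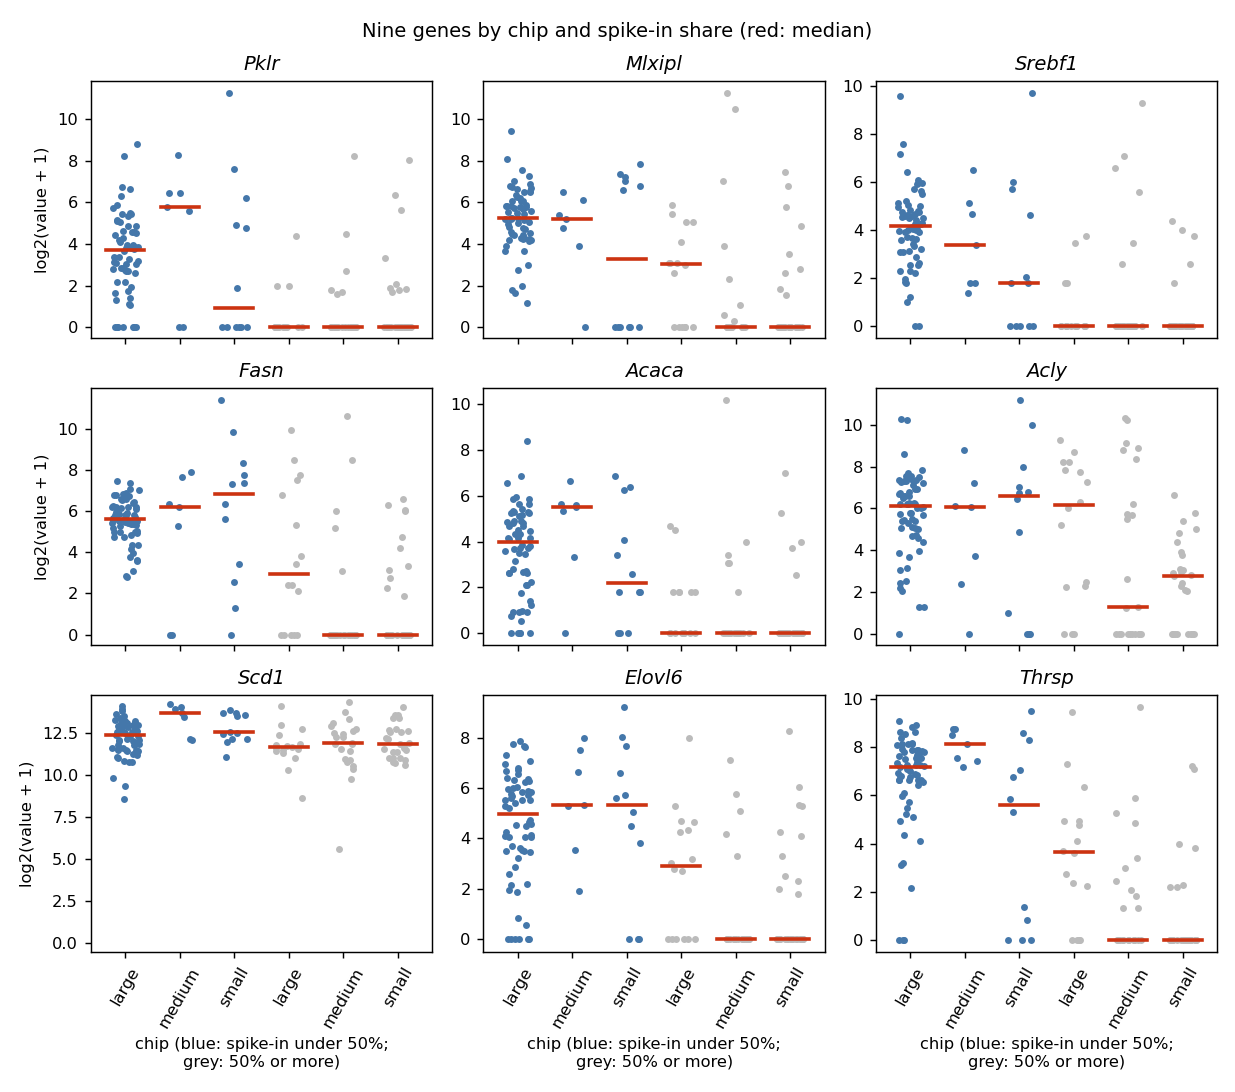
Each panel plots 1 gene as log2(value + 1) by chip, with cells under 50% spike-in in blue and the others in grey, and red lines at the medians. Scd1 stays high in every class, while the medians of Pklr, Srebf1 and Acaca are at 0 in all 3 grey classes.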

How the data were processed

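RNA-seq of 149 single cells was analysed from 1 deposited table. Per the submitters' processing notes the authors used CASAVA 1.8.2, Bowtie 0.12.9 and RSEM 1.2.3 with mm10. The deposited values are a signal, RSEM expected counts that the authors normalised, with SCnorm and WaveCrest named in the table's title. How chips and spike-ins were treated, and any filter, is not given in the sources used here. Cells held a median of 33 distinct values between 0 and 1, so whole reads were not recovered and read depth is unknown. Every column was matched to a labelled cell.

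The members and lists were chosen with earlier results of these data known. Genes named are the 9 members, up to 4 per list by size of rho, and those most like the members; other list genes were named after their values were seen. Values were used as log2(value + 1). Spearman's rho with the column order was computed for each gene above 0 in at least 20% of cells (8813 genes), and rho between remainders after a cubic polynomial for pairs. Both steps were run on simulated data, in which each gene was shuffled on its own and trends or a shared factor were planted. Such data do not hold the differences in spike-in share, summed values or other cell types. The simulation therefore cannot show how these affect the results. All 72 genes of the 6 pathway lists were in the table, 3 under an older symbol. Positions and lengths are from GENCODE M21 on GRCm38. No doublet caller was run. Alternatives changed the pseudocount, filter, scaling, cells, order and trend. Software was Python 3.11.15 with numpy 2.4.6, pandas 2.3.3 and scipy 1.17.1, and matplotlib 3.10.9 for plots.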

Additional observations from a re-analysis of the deposited data

How the results depend on the processing

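No paired analysis was possible because the results come from no test and replicate numbers only name cells. Of the 9 members 4 were graded toward the periportal end, but 2 without cells of large summed values, 2 without cells holding markers of other cell types, and 1 with the spike-in share held constant. Other pathway genes graded periportal numbered 14, or 9 by Pearson's r; those graded pericentral numbered 4, or 2 with the spike-in share held constant. Member pairs at 0.3 or more numbered 2. They were 4 with cells rescaled to their mouse sum, 4 with no trend removed, 5 with the spike-in share held constant, 6 with 5 bins of position, 9 by Pearson's r, 10 in 19 medium-chip and small-chip cells, and 16 over all large-chip cells. Pklr with Thrsp turned to -0.21 in those 19 cells. Members past 2-fold between medium and large chips numbered 2, both higher on the medium chip, or 1 with a pseudocount of 10 and 0 without each gene's highest cell of each chip; by medians over cells they numbered 8, all lower, so the direction turned. Between small and large chips they numbered 2 (1 higher, 1 lower), or 5 under 50% spike-in, all higher, and 8 by medians, all lower. The causes were not tested. Except where a share of all genes or pairs is given above, these counts under alternatives have no such share beside them. They show how the counts moved and are no result about the members. The other 44 counts under alternatives stayed within 1.5 times, but not always with the same members or direction. Small over large, 3 members were past 2-fold without each gene's highest cell of each chip, all lower (Srebf1, Acly and Thrsp). Medium over large under 50% spike-in, the 2 members were Pklr and Scd1 in place of Mlxipl and Acaca. Without cells of large summed values the 2 member pairs were Acaca with Scd1 and Acaca with Acly. Rank correlations with the order do not depend on the pseudocount. Settings with the spike-in share held constant, or without cells of other markers or highest cells, were chosen after seeing the data. Depth is unknown, a gene listed at 0 may be undetected, and 1 mouse gives no spread between animals.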

Other observations

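Several single cells were extreme in more than 1 member. Cell 53 held the highest Pklr (447) and the highest Acly (1233) of the 64 cells, with Elovl6 at 0. Cell 75 held the highest Mlxipl (695) with Acly at 1209 and also had Elovl6 at 0. Cell 5 held the highest Elovl6 (232) and the next to highest Pklr (302). Cell 64 held the highest Srebf1 (750), with Pklr, Acaca, Acly and Elovl6 at 0, the lowest Fasn (6.06) and the lowest Scd1 (378); it also held all 8 endothelial markers at 10 or more. Cell 61, with the highest Scd1 (17601), had 7 other members above their own medians.

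Outside the pathway lists, the gene of higher level most like Acly at the same position was C2, a complement component (rho 0.64), followed by Hpx, haemopexin (0.59), and F2, prothrombin (0.55). For Fasn it was Gamt, which makes creatine (0.63), and for Mlxipl Dbi, the acyl-CoA binding protein (0.58). For Scd1 it was Igfbp2, a binding protein of insulin-like growth factors (0.58), and for Thrsp Bbox1, of carnitine synthesis (0.53). These are the highest values among all genes of higher level, over 64 cells that share an animal, and describe these cells only.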
